A study of Solanum tuberosum with 8 samples.

Results

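The comparison of L1 with H1 set tubers of low tuber starch content (TSC) against tubers of high TSC, in both cases from potato plants with high *AGPaseS-a* expression. It was defined by the sample labels and took 4 of the 8 RNA-seq libraries of the series, replicates A and B of bulk L1 and replicates A and B of bulk H1. A bulk was a pool of equal amounts of tuber RNA from several plants of the diploid hybrid population 12-3, and L1, H1, L2 and H2 all came from untreated plants and from fully developed tubers taken after harvest. L1 was the bulk of low starch and high *AGPaseS-a* expression, and H1 the bulk of high starch and high *AGPaseS-a* expression. The other 4 libraries came from L2, of low starch and low *AGPaseS-a* expression, and H2, of high starch and low *AGPaseS-a* expression. The study compared the bulks to find genes whose transcripts differ with TSC. A bulk shows the mean of its plants and not the spread among them. The methods call A and B biological replicates, but whether they pooled the same plants is not given, so the p-values measure the spread between these libraries, which may be technical.

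Starch is stored in the amyloplasts of the tuber parenchyma. Sucrose arriving from the leaves is split by sucrose synthase or invertase, hexose phosphate enters the amyloplast through glucose-6-phosphate translocators, ADP-glucose pyrophosphorylase (AGPase) makes ADP-glucose, and starch synthases, branching and debranching enzymes build the granule, while phosphorylases, amylases and glucanotransferases take it apart. Next to starch, the parenchyma holds patatins and proteinase inhibitors as its main storage proteins, and the skin holds suberin, wax and phenolics.

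Levels are given as CPM, the share of a library's counts on a common scale, after TMM, a method that removes differences in library composition, and log2FC is the log2 level of L1 minus that of H1, so a positive value means a higher level in L1. The total counts were 31943185 (A) and 27543719 (B) for L1, against 15293539 (A) and 20344661 (B) for H1. Replicate A of H1 stood apart from the other libraries. Pearson's correlation of its log2 CPM with theirs, across 20389 genes that are not independent, was 0.893 to 0.913, against 0.914 to 0.964 among the other 7 libraries. Levels of 7661 genes (37.6%) lay more than 2-fold apart between the H1 replicates, against 2857 genes (14%) between the L1 replicates. Outside this comparison the counts were 5696 genes (27.9%) between the H2 replicates and 2469 genes (12.1%) between the L2 replicates. Medians of the described families are therefore given also against each H1 library alone. Over all tested genes these medians were 0.11 against H1 replicate A and -0.002 against H1 replicate B, the background for those of the families. The tissue was checked by marker lists. Transcripts of the storage parenchyma were abundant, with 20 patatin genes summing to 15019 and 14434 CPM in L1, against 19014 and 25496 CPM in H1, while 52 photosynthesis genes, the list for green tissue, summed to only 857 and 516 CPM in L1, against 802 and 549.6 CPM in H1. The 40 suberin, cutin and wax genes, the list for skin, summed to 268 and 271 CPM in L1, against 253 and 288 CPM in H1. *AGPaseS-a* encodes a large subunit of AGPase, and the annotation does not say which of its large subunit genes that is, so the expression labels were not checked here. The large subunit gene listed as *AGPS1* had 2247 and 2033 CPM in the L1 libraries and 2259.9 and 2217 CPM in the H1 libraries, 2106 and 1459 CPM in the L2 libraries and 2843 and 1307 CPM in the H2 libraries.

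No gene passed the study's thresholds (FDR under 0.05 and absolute log2FC of at least 1.5) in edgeR's quasi-likelihood test, 0 of 20389 tested genes (0%). DESeq2 called 37 genes (0.193% of the 19203 to which it gave an FDR), 16 higher and 21 lower in L1. At an unadjusted p under 0.05 in edgeR, 488 genes (2.39%) were higher and 680 genes (3.34%) were lower in L1. Both L1 libraries lay above both H1 libraries in 4154 genes (20.4%) and below them in 3426 genes (16.8%), and these shares are the background for the families below. Against H1 replicate B alone, 7300 genes (35.8%) were above and 7196 genes (35.3%) below. The counts at an unadjusted p under 0.05 rested on which library was left out: they were 467 higher and 323 lower without H1 replicate A, 2843 and 2291 without H1 replicate B, 195 and 262 without L1 replicate A, 279 and 418 without L1 replicate B, 312 and 457 without L2 replicate A, and 315 and 459 without L2 replicate B. All genes named here are thus described by their levels, and an unadjusted p is not a call. The tested genes were sorted into 77 families by the words of their product names, which took in 5516 genes. A further 4857 tested genes had the product name uncharacterized.

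The gene with the strongest evidence was LOC102588225, annotated as 9-divinyl ether synthase, a cytochrome P450 that turns lipoxygenase products into divinyl ethers (oxylipins). It had 9.88 and 10.4 CPM in L1, against 162 and 140.0 CPM in H1, with a log2FC of -3.90 ± 0.40 (SE, n = 2 libraries per bulk) and an FDR of 0.179 in edgeR. The L1 and H1 libraries were far apart and each pair was close. The next lowest FDR of any gene was 0.789. Next on the lower side by width of gap, that is by the distance between the nearest libraries of L1 and H1, were 2 genes of isoflavonoid product names. LOC102579822 (isoflavone 2'-hydroxylase-like) had 2.76 and 2.94 CPM in L1, against 11.3 and 10.9 CPM in H1, and LOC102596717 (isoflavone reductase-like protein) had 6.93 and 14.7 CPM in L1, against 48.4 and 58 CPM in H1. Both were lower in both L1 libraries, with log2FC of -1.96 ± 0.54 and -2.30 ± 0.45.

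Further genes with wide gaps on the lower side came from several functions. The storage protein gene LOC107059465 (probable inactive patatin-3-Kuras 1) had 576 and 1140.1 CPM in L1, against 4241 and 3049 CPM in H1. The carboxylesterase gene LOC102590725 had 3.17 and 3.08 CPM in L1, against 12.5 and 9.43 CPM in H1, and LOC102578794, an AAA-ATPase gene, had 2.79 and 2.5 CPM in L1, against 13.3 and 8.26 CPM in H1. LOC102580604 (acidic endochitinase, an enzyme that cuts fungal chitin) had 8.09 and 7.49 CPM in L1, against 26.9 and 21 CPM in H1. Among regulators, LOC102577893 (WRKY transcription factor 6) had 5.3 and 5.95 CPM in L1, against 14.1 and 15.5 CPM in H1, and the receptor-like kinase gene LOC102593061 had 4.39 and 2.81 CPM in L1, against 10.6 and 11.8 CPM in H1. These 6 genes had log2FC between -2.09 and -1.39, with the L1 libraries lowest in each. The other 3 of the 12 widest gaps were LOC107060951 (glycine-rich protein DOT1-like, log2FC -1.94 ± 0.59), LOC102581453 (NRT1/PTR FAMILY 1.2-like, a member of the nitrate and peptide transporter family, -2.26 ± 0.83) and LOC102603630 (annotated as an intermediate filament protein, -1.35 ± 0.37).

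On the higher side the widest gap was that of LOC102587781 (rop guanine nucleotide exchange factor 14, an activator of ROP GTPases, which steer polar growth). It had 8.9 and 10.8 CPM in L1, against 0.715 and 1.35 CPM in H1, a log2FC of 3.22 ± 0.61. LOC102593820, a homolog of the late blight resistance protein R1A-3, had 22.3 and 13.3 CPM in L1, against 3.02 and 1.68 CPM in H1. The seed-type storage protein gene LOC102601158 (cruciferin PGCRURSE5-like) had 96.2 and 129.8 CPM in L1, against 9.05 and 24.6 CPM in H1, a log2FC of 2.74 ± 0.70. In all of these the lower L1 library stood well above the higher H1 library. LOC107057670 (WAT1-related protein At1g09380-like) had 27.1 and 32.7 CPM in L1, against 4.29 and 6.91 CPM in H1, and LOC102584942 (kirola-like, of the Bet v 1 superfamily) had 222 and 169 CPM in L1, against 47.3 and 55 CPM in H1. Among genes with tight pairs of libraries, LOC102600953 (5'-nucleotidase SurE-like) had 30.3 and 31.6 CPM in L1, against 10.4 and 10.9 CPM in H1. LOC102601949, a homolog of SENSITIVITY TO RED LIGHT REDUCED 1, which in Arabidopsis acts in phytochrome B signalling and the circadian clock, had 18.4 and 19.2 CPM in L1, against 6.91 and 6.77 CPM in H1. The remaining 5 of the 12 widest gaps were LOC102580754 (anthocyanidin reductase-like, log2FC 3.47 ± 1.36), LOC102591644 (cytochrome P450 71A4-like, 2.66 ± 0.74), LOC102604395 (TWIN LOV 1-like, a blue light sensor, 1.84 ± 0.57), LOC102592380 (a receptor-like kinase, 1.66 ± 0.61) and LOC102586504 (replication protein A subunit B-like, 1.64 ± 0.44). Flavonoid genes were thus present at both ends, and over the 60 tested flavonoid genes the median log2FC was 0.00 (0.33 against H1 replicate A and 0.12 against H1 replicate B), with 14 members (23.3%) above and 9 (15%) below H1 without overlap.

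**Figure D1:**
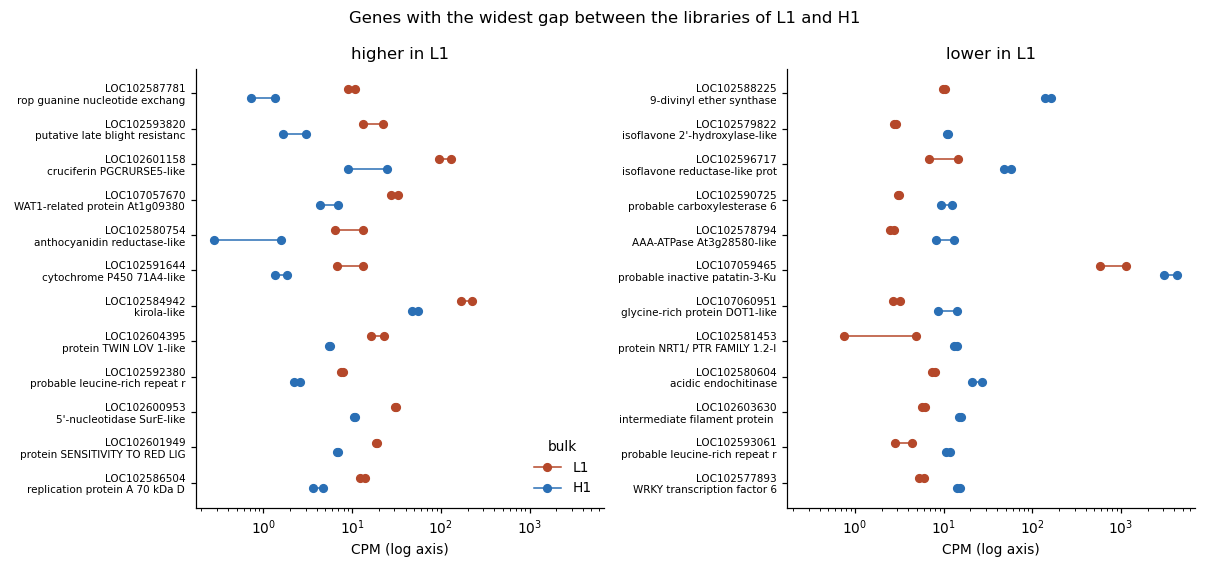
Levels (CPM, log axis) of the 12 genes per direction with the widest gap between the libraries of L1 and H1, at an unadjusted p under 0.05 in edgeR and a mean of at least 5 CPM. Each point is 1 library and the line joins replicates A and B of a bulk; the 9-divinyl ether synthase gene, at 9.88 and 10.4 CPM in L1 and 162 and 140.0 CPM in H1, has the widest gap of those drawn.

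For starch synthesis, none of the 11 tested members had an unadjusted p under 0.05, and their median log2FC was 0.09, against 0.02 over all tested genes, with 0.42 against H1 replicate A and -0.05 against H1 replicate B. *GBSS*, the granule-bound starch synthase that makes amylose, had 3407 and 3034 CPM in L1, against 1881 and 2541 CPM in H1, so both L1 libraries were above both H1 libraries (log2FC 0.54 ± 0.33). The isoamylase 3 gene LOC102577824, a debranching enzyme, had 263 and 286 CPM in L1, against 156 and 200.1 CPM in H1. It was placed under synthesis by its product name alone, and whether it builds starch or takes it apart was not tested. The starch synthase 1 gene LOC102600045 had 17.9 and 21.1 CPM in L1, against 12.7 and 15.8 CPM in H1. A further soluble starch synthase gene, LOC102577674, was lower in both L1 libraries, with 238 and 245 CPM in L1, against 263 and 292 CPM in H1. The gene listed as *AGPS1*, which the annotation calls an AGPase large subunit, overlapped between the bulks, with the levels given above (log2FC -0.06 ± 0.40). The small subunit gene LOC102577790 had 1113 and 1299 CPM in L1, against 1956 and 1097 CPM in H1. Its log2FC was -0.34 ± 0.41 and the libraries overlapped.

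Among 20 genes of starch breakdown, 5 were higher in both L1 libraries (25%, against 20.4% of all genes) and 0 were lower in both, against 16.8% of all genes, and none had an unadjusted p under 0.05. Their median log2FC was 0.30, with 0.43 against H1 replicate A and 0.12 against H1 replicate B. The beta-amylase 8 gene LOC102598339 had 19.9 and 17.6 CPM in L1, against 9.77 and 14 CPM in H1. The most abundant member, the plastidial phosphorylase gene LOC102596766, had 6789 and 7490.2 CPM in L1, against 10062 and 5359.7 CPM in H1, and here the H1 replicates enclosed both L1 libraries. The cytosolic phosphorylase gene LOC102577532 had 672 and 447 CPM in L1, against 470.4 and 331 CPM in H1, and *DE2* (4-alpha-glucanotransferase) had 799 and 659 CPM in L1, against 363 and 705 CPM in H1.

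In sucrose metabolism, 4 of 32 genes (12.5%, against 2.39% of all genes) were higher in L1 at an unadjusted p under 0.05 and none was lower. The family median was 0.10, with 0.25 against H1 replicate A and -0.09 against H1 replicate B. The alkaline/neutral invertase D gene LOC102602949 had 4.7 and 6.61 CPM in L1, against 1.27 and 1.07 CPM in H1 (log2FC 2.27 ± 0.54, unadjusted p = 0.0029 in edgeR), and it was among the 37 genes called by DESeq2. LOC102581151 (probable sucrose-phosphate synthase 2) had 261 and 171 CPM in L1, against 87 and 132 CPM in H1 (log2FC 0.98 ± 0.38), and LOC102605773 (hexokinase-1) had 7.99 and 6.78 CPM in L1, against 1.59 and 4.48 CPM in H1. Both were chosen after their values were seen. The last of the 4, the cell wall invertase gene LOC102604100 (CWINV3-like), was scarce, with 0.345 and 0.411 CPM in L1, against 0 and 0 CPM in H1, at least 4.27-fold higher in L1 if the 0 counts of H1 are set to 3 counts over the bulk. All 4 make or split sucrose or act on its hexoses. Their libraries did not overlap, which held for 1136 of all 1168 genes at an unadjusted p under 0.05 and so adds nothing. Over the 32 genes, 8 (25%, against 20.4%) were higher and 4 (12.5%, against 16.8%) lower without overlap. Among the lower ones, the scarce LOC102588355 (sucrose synthase 7-like) had 0.0941 and 0.24 CPM in L1, against 1.51 and 1.45 CPM in H1. A second gene with the product name of alkaline/neutral invertase D, LOC102597490, was more abundant and had 75.1 and 93.3 CPM in L1, against 102 and 101 CPM in H1, the opposite order. The main sucrose synthase gene *SS16* had 2145 and 2526 CPM in L1, against 2159 and 2404 CPM in H1, a log2FC of 0.03 ± 0.38. *SPS* (sucrose-phosphate synthase) had 714 and 906 CPM in L1, against 465 and 929 CPM in H1, and the fructokinase-like gene LOC102577816 had 316 and 317 CPM in L1, against 577 and 248 CPM in H1. In both, the H1 replicates enclosed both L1 libraries.

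In sugar transport the genes named for glucose-6-phosphate translocators 1 and 2 lay in opposite directions. LOC102577730 (translocator 2), the most abundant of the family, had 472 and 620.4 CPM in L1, against 1234 and 838 CPM in H1, lower in both L1 libraries. LOC102578523 (translocator 1) had 333 and 245 CPM in L1, against 75.3 and 235 CPM in H1, higher in both, although H1 replicate B was close to L1 replicate B. Their log2FC were -0.92 ± 0.47 and 0.90 ± 0.63, and neither had an unadjusted p under 0.05. LOC102591971 (sugar transporter ERD6-like 5) had 15.9 and 11.5 CPM in L1, against 7.22 and 4.95 CPM in H1 (log2FC 1.18 ± 0.40). Over all 38 genes the median log2FC was 0.07, with 0.29 against H1 replicate A and -0.12 against H1 replicate B. In glycolysis, 13 of 53 genes (24.5%) were higher and 8 (15.1%) lower without overlap, with a median log2FC of 0.13, 0.18 against H1 replicate A and 0.04 against H1 replicate B. Among those higher in both L1 libraries were plastid enzymes. The plastidial pyruvate kinase 2 gene LOC102579422 had 266 and 225 CPM in L1, against 107 and 156 CPM in H1, the chloroplastic triosephosphate isomerase gene LOC102601486 had 49.1 and 44.5 CPM in L1, against 21.7 and 29.3 CPM in H1, and LOC102581441 (phosphofructokinase 5, chloroplastic-like) had 17 and 17.2 CPM in L1, against 8.89 and 11.9 CPM in H1. The phosphofructokinase 2 gene LOC102593810 was lower, with 16.4 and 11.4 CPM in L1, against 19.5 and 43.7 CPM in H1. The abundant *PGAM* (phosphoglycerate mutase, log2FC 0.17 ± 0.26) and *GAPDH* (-0.57 ± 0.35) had non-overlapping libraries, but neither had an unadjusted p under 0.05. Over 17 fermentation genes the median was -0.03, with 0.33 against H1 replicate A and -0.08 against H1 replicate B, and *ADH1* (alcohol dehydrogenase) had 29.1 and 90.4 CPM in L1, against 95.3 and 95 CPM in H1.

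**Figure D2:**
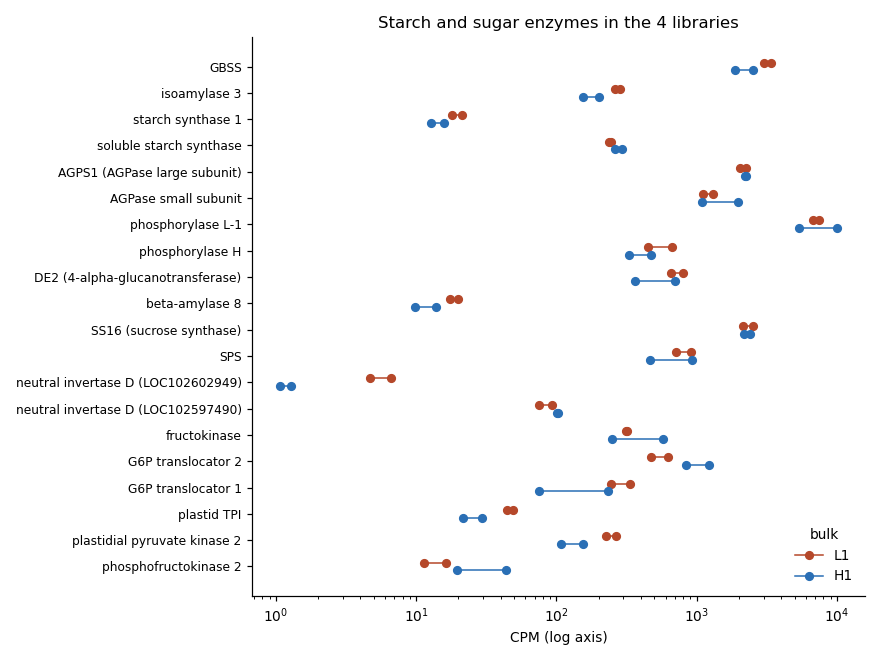
Levels (CPM, log axis) of 20 enzymes of starch and sugar metabolism and sugar transport in the 4 libraries, with L1 above H1 for each gene. Each point is 1 library; the pairs of *GBSS* (3407 and 3034 CPM in L1, 1881 and 2541 CPM in H1) and of the invertase gene LOC102602949 do not overlap, while those of *AGPS1* and *SS16* do.

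Storage proteins were lower in L1 for patatins and divided for globulins. Of 20 tested patatin and patatin-like genes, 8 (40%, against 16.8% of all genes) were lower in both L1 libraries and 1 was higher in both, and the median log2FC was -0.63. The difference was present against each H1 library, with -0.30 against replicate A and -0.62 against replicate B. The most abundant gene, LOC102605593 (patatin-2-Kuras 4-like), had 9499 and 7968 CPM in L1, against 10551 and 13835 CPM in H1. LOC102605260 (patatin-05-like) had 3632 and 3132 CPM in L1, against 2094 and 4319 CPM in H1, with the L1 libraries between those of H1. The largest difference among the abundant ones was that of LOC107059465 (probable inactive patatin-3-Kuras 1), given above, at a log2FC of -2.09 ± 0.42 and an unadjusted p of 0.001 in edgeR. A second gene with the same product name, LOC107059466, chosen after its values were seen, had 248 and 511 CPM in L1, against 761 and 1178 CPM in H1 (log2FC -1.35 ± 0.41). Patatins are near-identical copies among which counting can divide reads, so the values of single genes are uncertain. Summed over the family, the levels were 15019 and 14434 CPM in L1, against 19014 and 25496 CPM in H1, and the sums of L1 and H1 did not overlap. After TMM, all tested genes summed to 1213960 CPM in H1 replicate A and 949393 CPM in H1 replicate B, against 1001220 and 942276 CPM in L1. Sums in H1 replicate A are thus raised by its TMM factor, and the size of its distance from L1 depends on that factor.

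The 8 tested genes of seed-type storage globulins all separated the bulks, 3 of them higher and 5 lower in L1. Beside LOC102601158, the 12S globulin gene LOC102600491 (CRD-like) was higher, with 178 and 217 CPM in L1, against 68.7 and 80.1 CPM in H1 (log2FC 1.41 ± 0.43), as was LOC102595370 (basic 7S globulin-like), with 18.1 and 9.89 CPM in L1, against 7.38 and 6.77 CPM in H1. These 3 had unadjusted p-values of 0.0042, 0.011 and 0.039 in edgeR. Among the lower ones, LOC102587356 (12S globulin 1-like) had 45 and 100 CPM in L1, against 115 and 128 CPM in H1, LOC102598565 (vicilin-like antimicrobial peptides) had 3.45 and 4.28 CPM in L1, against 10.1 and 7 CPM in H1, and a second basic 7S globulin-like gene, LOC102588581, had 4.14 and 7.15 CPM in L1, against 10.5 and 17.2 CPM in H1. None of the lower ones had an unadjusted p under 0.05. The summed level was higher in L1, at 345 and 469 CPM in L1, against 223 and 265 CPM in H1. The family median was nevertheless -0.88 (-0.61 against H1 replicate A and -0.73 against H1 replicate B), with members on both sides among the most abundant ones, and it was 0.09 where only genes with 50 or more counts in both libraries of 1 bulk or another were kept.

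Proteinase inhibitors, the other main class of tuber proteins, had 19 of 62 genes (30.6%, against 16.8%) lower and 8 (12.9%, against 20.4%) higher in both L1 libraries, and 7 lower (11.3%, against 3.34%) and 1 higher at an unadjusted p under 0.05. The median log2FC was -0.36, and against H1 replicate A the median difference was -0.41, and against H1 replicate B -0.13. The abundant Kunitz-type gene LOC102577642 had 10395 and 7664 CPM in L1, against 17771 and 7889.6 CPM in H1, with H1 replicate A the only library far from the others. LOC102577909 (cysteine protease inhibitor 8-like) had 4804 and 4995 CPM in L1, against 9058 and 5374 CPM in H1, and the Kunitz gene LOC102593157 had 4879 and 3184 CPM in L1, against 4688 and 2975 CPM in H1. Wider gaps were found for wound-type inhibitors. LOC102590434 (proteinase inhibitor type-2-like) had 35.1 and 12.8 CPM in L1, against 292 and 65.2 CPM in H1 (log2FC -2.90 ± 0.91), and LOC102597545 (chymotrypsin inhibitor I-like) had 67.2 and 5.3 CPM in L1, against 284 and 156 CPM in H1 (log2FC -2.60 ± 1.36). In the last gene the L1 replicates themselves lay far apart. Among 15 cysteine protease genes, 5 (33.3%) were higher and 4 (26.7%) lower without overlap, and all 4 of the lower ones had an unadjusted p under 0.05. Their median was 0.16, with 0.28 against H1 replicate A and 0.02 against H1 replicate B. The cathepsin B-like gene LOC102577522 had 40.8 and 42.4 CPM in L1, against 104 and 80.2 CPM in H1 (log2FC -1.15 ± 0.26), while the abundant LOC102582822 (low-temperature-induced cysteine proteinase-like) had 451 and 503 CPM in L1, against 371 and 483 CPM in H1.

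Of the 77 families, 10 had a median at least 0.2 away from that of all tested genes in the same direction against each H1 library alone, 8 of them lower and 2 higher in L1. The lower ones were patatins, storage globulins, glutathione S-transferases, WRKY factors, phenylpropanoid enzymes, polyphenol oxidases, lipid-transfer proteins and suberin, cutin and wax genes, and the higher ones were WAT1-related proteins and aquaporins. This concerns medians over members, and the summed level of storage globulins was higher in L1. Both comparisons share the 2 L1 libraries, so the spread within L1 is not covered. Between the L1 replicates, medians of A minus B in these 10 families ran from -0.86 for polyphenol oxidases to -0.08 for WAT1-related proteins. Over the alternative settings the median log2FC reached -0.0016 for phenylpropanoid enzymes, 0.09 for storage globulins and -0.13 for aquaporins. In 42 other families the median was at least 0.2 away against H1 replicate A only, in 1 against H1 replicate B only, and in 2 it lay on opposite sides. The choice of 0.2 is descriptive and was made after the medians were seen.

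**Figure D3:**
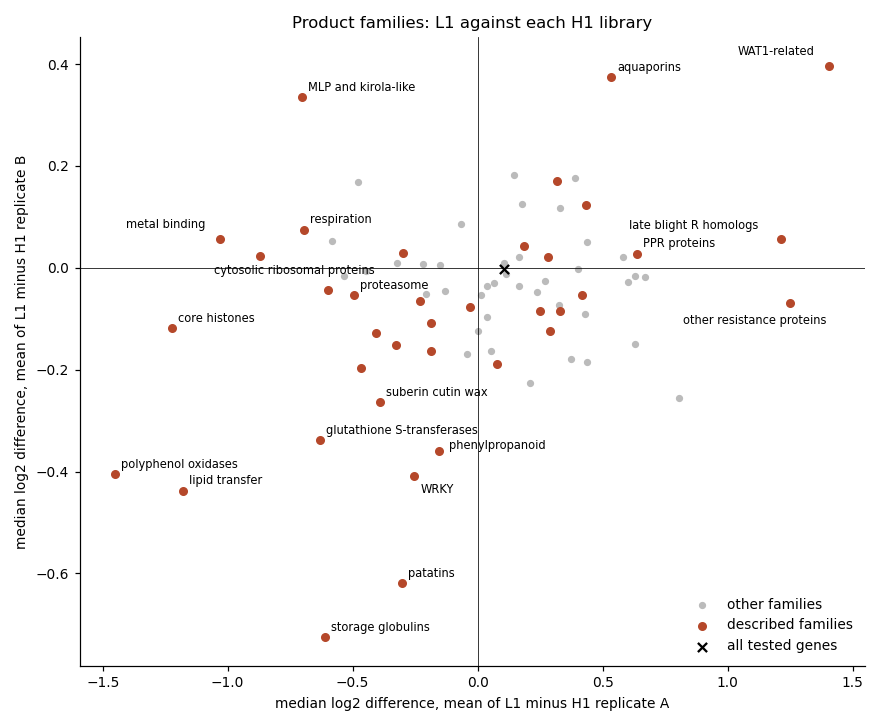
Median over the members of each of 77 product families of the log2 difference between the mean of the L1 libraries and H1 replicate A (x axis) or H1 replicate B (y axis), both axes sharing the L1 libraries. Red points are the 37 described families, grey points the others and the cross all tested genes; the x axis spans the wider range, and ribosomal proteins, histones and resistance proteins lie far from 0 on the x axis only.

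Glutathione S-transferases conjugate glutathione to reactive compounds, and 15 of 39 tested genes (38.5%) were lower in both L1 libraries against 1 (2.56%) higher. The median log2FC was -0.47, and against H1 replicate A the median difference was -0.63, and against H1 replicate B -0.34. LOC102583107 had 205 and 159.7 CPM in L1, against 503 and 333 CPM in H1 (log2FC -1.20 ± 0.30), LOC107057662 (GST 23-like) had 4.48 and 5.27 CPM in L1, against 18.3 and 9.99 CPM in H1, and the zeta class gene LOC102593841 had 331 and 231 CPM in L1, against 422 and 343 CPM in H1. Polyphenol oxidases, the enzymes of tuber browning, had 3 tested members with a median of -1.05, -1.45 against H1 replicate A and -0.41 against H1 replicate B. *PPO* (catechol oxidase B) had 7.37 and 13.4 CPM in L1, against 22.7 and 22.6 CPM in H1, and LOC102604380 (polyphenol oxidase D) had 48.3 and 38 CPM in L1, against 117 and 56.8 CPM in H1. The L1 libraries were lower in both genes, and their unadjusted p-values in edgeR were 0.018 and 0.043.

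Phenylpropanoid enzymes lead from phenylalanine to lignin, suberin phenolics and chlorogenic acid. Of 57 genes, 13 (22.8%) were lower and 6 (10.5%) higher without overlap, with a median of -0.29, -0.16 against H1 replicate A and -0.36 against H1 replicate B. The entry enzyme phenylalanine ammonia-lyase was lower for the abundant gene LOC102596017, with 133 and 229 CPM in L1, against 286 and 409 CPM in H1, and for LOC102596891, with 2.07 and 2.19 CPM in L1, against 4.45 and 5.7 CPM in H1. LOC102601955 (caffeic acid 3-O-methyltransferase 1-like) had 13.5 and 17.6 CPM in L1, against 45.6 and 32.3 CPM in H1 (log2FC -1.32 ± 0.29) and the cinnamyl alcohol dehydrogenase gene LOC102602480 had 68 and 107 CPM in L1, against 149 and 130.0 CPM in H1. The cinnamoyl-CoA reductase gene LOC102585033 went the other way, with 9.84 and 5.78 CPM in L1, against 1.19 and 2.71 CPM in H1. Among 40 genes of suberin, cutin and wax, 9 (22.5%) were lower and 3 (7.5%) higher, with a median of -0.33, -0.39 against H1 replicate A and -0.26 against H1 replicate B. *POPA*, the suberization-associated anionic peroxidase, had 2.16 and 2.64 CPM in L1, against 10.1 and 6.02 CPM in H1, and its relative LOC102605292 had 0.972 and 1.61 CPM in L1, against 4.6 and 3.78 CPM in H1. LOC102599091 (ECERIFERUM 1-like, of wax alkane synthesis) had 10.8 and 13.7 CPM in L1, against 20.8 and 44.5 CPM in H1, while the most abundant member, LOC102593540 (3-ketoacyl-CoA synthase 4, of fatty acid elongation), had 141 and 116 CPM in L1, against 48.7 and 99.3 CPM in H1. The summed level of the list overlapped between the bulks as given above. Lipid-transfer proteins had 7 of 22 genes (31.8%) lower and 1 higher, with a median of -0.83, -1.18 against H1 replicate A and -0.44 against H1 replicate B. LOC102585969 (4.1-like) had 56.2 and 60.2 CPM in L1, against 94.1 and 79.5 CPM in H1 and LOC102593808 (At2g13820-like) had 1.57 and 4.28 CPM in L1, against 10.3 and 7.14 CPM in H1, but the most abundant one, LOC102597952, had 598 and 317 CPM in L1, against 339.7 and 411 CPM in H1. In bulk tissue, fewer cells of a type and less RNA per cell cannot be told apart. Whether the bulks held different shares of skin was not tested. Of 50 peroxidase genes, 14 (28%) were lower and 6 (12%) higher, and the median of -0.20 over both H1 libraries divided into -0.30 against H1 replicate A and 0.03 against H1 replicate B. Both L1 libraries were above H1 replicate B in 15 of these genes and below it in 17. LOC102585990 (peroxidase 12) had 9.15 and 9.79 CPM in L1, against 22.4 and 20.4 CPM in H1, while LOC102594915 (peroxidase 45-like) was higher, with 8.53 and 7.73 CPM in L1, against 2.22 and 3.5 CPM in H1.

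WRKY factors are regulators of defence and stress genes. Of 53 tested, 18 (34.0%) were lower and 4 (7.55%) higher in both L1 libraries, with a median log2FC of -0.40, and against H1 replicate A the median difference was -0.25, and against H1 replicate B -0.41. LOC102603993 (WRKY44) had 0.847 and 1.33 CPM in L1, against 7.86 and 6.77 CPM in H1, a log2FC of -2.74 ± 0.49 with an unadjusted p of 4.4e-04 in edgeR, and DESeq2 called it. LOC102577893 (WRKY6), given above, had a log2FC of -1.39 ± 0.33. The most abundant member, LOC102590856 (WRKY2), was higher instead, with 327 and 271 CPM in L1, against 127 and 205 CPM in H1. The ethylene-responsive (ERF and AP2) factors were lower in 20 (26.3%) and higher in 8 (10.5%) of 76 genes, with a median of -0.34, -0.33 against H1 replicate A and -0.15 against H1 replicate B, but at an unadjusted p under 0.05 there were 3 higher and 2 lower. The most abundant, LOC102594588 (RAP2-3, of low-oxygen responses), had 1912 and 991 CPM in L1, against 774 and 593 CPM in H1, and LOC102579807 (RAP2-7, an AP2 factor that represses flowering in Arabidopsis) had 61.6 and 71 CPM in L1, against 36.4 and 29.1 CPM in H1 (log2FC 1.02 ± 0.28). LOC102582990 (AIL7) was lower, with 4.7 and 2.43 CPM in L1, against 8.65 and 10.2 CPM in H1. MADS factors were lower in 8 (28.6%) and higher in 1 of 28 genes, but the median was -0.60 against H1 replicate A and -0.04 against H1 replicate B. *STMADS11* had 65.2 and 26.1 CPM in L1, against 134 and 69.8 CPM in H1. Heat stress factors were lower in 7 (29.2%) and higher in 0 of 24 genes, with medians of -0.19 against H1 replicate A and -0.11 against H1 replicate B. The abundant LOC102597973 (B-2a-like) had 373 and 381 CPM in L1, against 605 and 418 CPM in H1, and LOC102604072, a heat shock factor-binding protein gene, had 6.99 and 6.78 CPM in L1, against 23.8 and 10.2 CPM in H1.

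WAT1-related proteins stood out on the higher side. WAT1 of Arabidopsis exports auxin from the vacuole and acts in secondary wall formation, and its relatives are membrane transporters of mostly unknown cargo. Of the family, 12 of 24 tested genes (50%, against 20.4% of all genes) were higher in both L1 libraries, 2 were lower, and 7 (29.2%, against 2.39%) had an unadjusted p under 0.05, all of them higher. The median log2FC was 0.67, and against H1 replicate A the median difference was 1.41, and against H1 replicate B 0.40. The summed level was 218 and 182 CPM in L1, against 100.1 and 141 CPM in H1. LOC107057670 is given above (log2FC 2.41 ± 0.78), and LOC102580801 (At4g19185-like) had 28 and 20.2 CPM in L1, against 8.89 and 11.3 CPM in H1 (log2FC 1.25 ± 0.36). Others of the widest gaps were scarce. LOC102592022 (At4g08300-like) had 1.5 and 4.96 CPM in L1, against 0 and 0.187 CPM in H1, LOC102591987 (At1g09380-like) had 2.38 and 1.75 CPM in L1, against 0 and 0.0934 CPM in H1, and LOC102583000 (At1g70260-like) had 1.29 and 0.582 CPM in L1, against 0.0794 and 0.0467 CPM in H1. The most abundant member, LOC102600367 (At3g02690, a plastid protein), had 69.3 and 36.3 CPM in L1, against 39.3 and 47.7 CPM in H1 and overlapped. Between the H1 replicates themselves, the median of A minus B was -0.70.

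Aquaporins, the water channels of the plasma membrane (PIP) and vacuole (TIP), were higher in both L1 libraries in 7 of 23 genes (30.4%) and lower in 1 (4.35%), with a median log2FC of 0.42, 0.53 against H1 replicate A and 0.37 against H1 replicate B. The median was -0.13 without L1 replicate B and between 0.38 and 0.54 without each of the other libraries in turn. LOC102595835 (PIP-type pTOM75), the most abundant, had 378 and 415 CPM in L1, against 227 and 306 CPM in H1. LOC102591890 (TIP1-1) had 133 and 125 CPM in L1, against 89.1 and 83.3 CPM in H1, and LOC102596615 (TIP2-1-like) had 19.6 and 19.3 CPM in L1, against 9.69 and 13.4 CPM in H1. LOC102590714 (PIP2-7-like) overlapped, with 74.9 and 84.3 CPM in L1, against 126 and 56 CPM in H1. Auxin genes were higher in 30 (35.3%) and lower in 8 (9.41%) of 85 genes with a median of 0.15, 0.32 against H1 replicate A and 0.17 against H1 replicate B. LOC102588218 (auxin response factor 17) was higher, with 2.88 and 6.13 CPM in L1, against 1.11 and 1.45 CPM in H1, and LOC102591075 (SAUR71) was lower, with 0.721 and 0.821 CPM in L1, against 5 and 1.77 CPM in H1. Of the abundant auxin genes, 2 overlapped between the bulks, with log2FC of 0.11 ± 0.34 for LOC102581405 (auxin-repressed 12.5 kDa protein-like) and 0.25 ± 0.33 for LOC102604408 (auxin response factor 1). Gibberellin genes had 4 of 18 higher (22.2%) and 3 lower (16.7%), with medians of -0.03 against H1 replicate A and -0.08 against H1 replicate B. The biosynthesis gene LOC102584697 (gibberellin 20 oxidase 1-D) had 6.77 and 5.61 CPM in L1, against 3.26 and 3.13 CPM in H1, while LOC102587893 (DELLA protein GAI, a repressor of gibberellin responses) had 99.8 and 88.7 CPM in L1, against 84.7 and 82.3 CPM in H1.

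**Figure D4:**
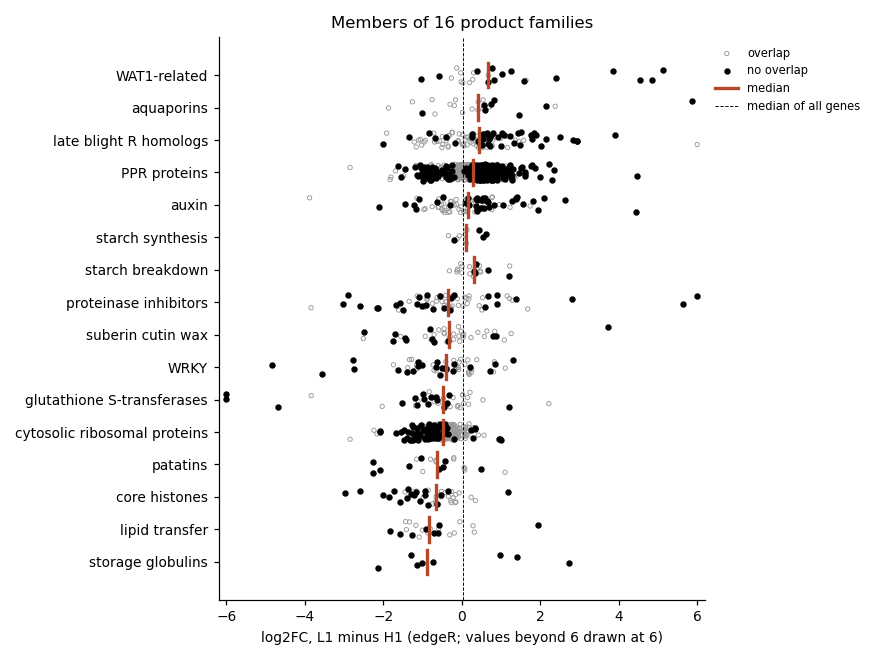
Members of 16 product families, each point being 1 tested gene placed by its log2FC (L1 minus H1, edgeR, x axis, values beyond 6 drawn at 6), filled where the libraries of L1 and H1 do not overlap. The red bar is the family median, from 0.67 for WAT1-related proteins at the top to -0.88 for storage globulins at the bottom, where members lie on both sides, and the dashed line is the median of all tested genes at 0.02.

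Several large families differed between the bulks against H1 replicate A but little against H1 replicate B. Cytosolic ribosomal proteins were lower in both L1 libraries in 63 of 217 genes (29.0%) and higher in 7 (3.23%), with a median log2FC of -0.49. Against H1 replicate A it was -0.87, against H1 replicate B 0.02, and between the H1 replicates 0.89. The summed levels were 57419 and 47169.8 CPM in L1, against 101489 and 53562 CPM in H1. Single genes nevertheless separated the bulks against both replicates. LOC102600468 (60S L6-like) had 543 and 1097 CPM in L1, against 2932 and 2283 CPM in H1, LOC102584366 (60S L31-like) had 86 and 87.3 CPM in L1, against 286 and 163 CPM in H1, and LOC102599926 (40S S29) was higher, with 55.5 and 54.3 CPM in L1, against 29.3 and 28 CPM in H1. The most abundant, LOC102598069 (60S L3-like), had 3020.4 and 2462 CPM in L1, against 2257 and 2367 CPM in H1. Core histones were lower in 18 of 45 genes (40%), with medians of -1.22 against H1 replicate A and -0.12 against H1 replicate B. The abundant LOC102587619 (histone H3.3) had 317 and 278 CPM in L1, against 616 and 243 CPM in H1, and the scarce H3.2 genes LOC102586107 and LOC102600117 had 0.282 and 0.89 CPM in L1, against 4.45 and 2.71 CPM in H1, and 0.157 and 0.205 CPM in L1, against 2.06 and 0.887 CPM in H1. The other list of dividing cells, 106 cell cycle genes, had a median of 0.06 (0.37 against H1 replicate A and -0.18 against H1 replicate B) and summed to 2822 and 2707 CPM in L1, against 3021 and 2836 CPM in H1.

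The same held for respiration genes, metal-binding proteins and the proteasome. Respiratory chain genes were lower in 27 (30.3%) and higher in 8 (8.99%) of 89, with medians of -0.69 against H1 replicate A and 0.08 against H1 replicate B, and LOC102594243, of complex I, had 494 and 442 CPM in L1, against 562 and 501 CPM in H1. Metal-binding proteins were lower in 10 (40%) and higher in 2 (8%) of 25 genes, with medians of -1.03 and 0.06 against H1 replicates A and B. The metallothionein genes LOC102605015 and LOC102577567 had 2767 and 1824 CPM in L1, against 5731 and 1929 CPM in H1, and 2098 and 1735 CPM in L1, against 3996 and 2151 CPM in H1, while LOC102597804, a copper chaperone gene (ATX1-like), was lower against both replicates, with 6.8 and 5.03 CPM in L1, against 14.1 and 14.8 CPM in H1. Proteasome genes were lower in 14 (30.4%) and higher in 5 (10.9%) of 46, with medians of -0.50 against H1 replicate A and -0.05 against H1 replicate B, and the subunit genes LOC102603250 and LOC102599420 had 171 and 193 CPM in L1, against 413 and 277 CPM in H1, and 64.3 and 68.4 CPM in L1, against 178 and 98.7 CPM in H1.

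On the higher side, homologs of late blight resistance proteins, intracellular receptors of the NLR class, were higher in both L1 libraries in 35 of 107 genes (32.7%) and lower in 6 (5.61%). Their median was 1.22 against H1 replicate A and 0.06 against H1 replicate B. Apart from LOC102593820, LOC102593485 (R1B-23) had 3.98 and 8.18 CPM in L1, against 0.318 and 0.467 CPM in H1, and the abundant LOC102594035 (R1A-4) and LOC102605241 (R1A-3) had 101 and 91.9 CPM in L1, against 59.6 and 80.5 CPM in H1, and 95.5 and 76.4 CPM in L1, against 44.7 and 73.5 CPM in H1. Other resistance protein genes were higher in 48 (26.5%) and lower in 14 (7.73%) of 181, with medians of 1.25 and -0.07 against H1 replicates A and B, and the most abundant, LOC102589432 (RPP8-like), had 52 and 70.4 CPM in L1, against 21.6 and 56.5 CPM in H1. Pentatricopeptide repeat (PPR) proteins, which process RNA in plastids and mitochondria, were higher in 142 (31.6%) and lower in 48 (10.7%) of 449, with medians of 0.64 and 0.03. Among them LOC102597059 (At1g64100-like) had 3.54 and 2.77 CPM in L1, against 0.635 and 0.607 CPM in H1, LOC102587006 (At2g17670) had 5.89 and 6.13 CPM in L1, against 2.54 and 2.66 CPM in H1, and LOC102590270 (At4g38150) was lower, with 48.6 and 81 CPM in L1, against 139.7 and 159 CPM in H1.

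Of the remaining described families, MLP and kirola-like proteins of the Bet v 1 superfamily had medians of opposite sign, -0.70 against H1 replicate A and 0.33 against H1 replicate B. LOC102584942 is given above, LOC102590200 (MLP-like protein 28) was lower, with 145 and 278 CPM in L1, against 947 and 428 CPM in H1, and the scarce kirola-like gene LOC107063488 had 0.345 and 0.89 CPM in L1, against 4.84 and 5.18 CPM in H1. Late embryogenesis proteins and oleosins were lower in 3 (23.1%) and higher in 0 of 13 genes, with medians of -0.47 against H1 replicate A and -0.20 against H1 replicate B. The dehydrin gene LOC102598409 had 114 and 106 CPM in L1, against 741 and 120.1 CPM in H1. Of these libraries it was high only in H1 replicate A, but it had 258 CPM in H2 replicate B, against 71.0 CPM in H2 replicate A and 122 and 91.3 CPM in L2. Tubulin and actin genes were lower in 15 (37.5%) and higher in 7 (17.5%) of 40, with medians of -0.23 against H1 replicate A and -0.06 against H1 replicate B. Among them LOC102581203 (tubulin beta-2) had 63.1 and 61.2 CPM in L1, against 149 and 87.9 CPM in H1, and LOC102604019 (tubulin alpha) had 488 and 540.1 CPM in L1, against 389 and 313 CPM in H1. Expansins and xyloglucan enzymes were lower in 13 (26%) and higher in 4 (8%) of 50 genes, with medians of -0.18 against H1 replicate A and -0.16 against H1 replicate B. Pathogenesis-related proteins were lower in 29 (31.5%) and higher in 19 (20.7%) of 92, with a median of -0.11, 0.08 against H1 replicate A and -0.19 against H1 replicate B.

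Neighbouring genes were read together where starts lay within 100 kb (assembly SolTub_3.0), the log2FC was 1.5 or more in size in 1 direction and the unadjusted p was under 0.05, which gave 4 runs. On scaffold NW_006239536.1, 3 uncharacterized genes between positions 17293 and 65135 were lower in L1. LOC102604506 had 12.8 and 15.9 CPM in L1, against 169.8 and 58.3 CPM in H1, LOC102604170 had 10.3 and 16.1 CPM in L1, against 98.4 and 59.4 CPM in H1, and LOC102603835 had 0.345 and 0.582 CPM in L1, against 2.3 and 10.5 CPM in H1. On scaffold NW_006239019.1, 3 cysteine synthase-like genes and the annotated pseudogene LOC102591895, between positions 1413898 and 1435643, were higher in L1, all at low levels. LOC102591895 had 2.35 and 1.57 CPM in L1, against 0 and 0 CPM in H1, at least 22.4-fold higher in L1 if the 0 counts of H1 are set to 3 counts over the bulk. LOC102592225 had 5.08 and 2.74 CPM in L1, against 1.27 and 0.467 CPM in H1, LOC102602372 had 1.29 and 1.06 CPM in L1, against 0 and 0.14 CPM in H1, and LOC102592568 had 0.282 and 0.308 CPM in L1, against 0 and 0 CPM in H1, at least 3.34-fold higher in L1 by the same floor. Cysteine synthase makes cysteine from O-acetylserine and sulfide. On scaffold NW_006239195.1, between positions 21977 and 146256, the resistance gene LOC102589378 (At4g27190-like) had 14 and 10.6 CPM in L1, against 4.37 and 3.87 CPM in H1, with the scarce LOC102595803 (an annotated pseudogene, log2FC 3.34 ± 1.44) and LOC107062812 (a noncoding RNA, 4.20 ± 1.71) at its sides. The last run lay in the plastid genome, where *ycf3* had 12.1 and 15.3 CPM in L1, against 245 and 12.1 CPM in H1, *atpF* 4.86 and 4.28 CPM in L1, against 78.7 and 4.58 CPM in H1, and *trnL-UAA* 0.752 and 0.445 CPM in L1, against 12.4 and 0.373 CPM in H1. Of the 4 libraries of L1 and H1, only H1 replicate A was high in these genes. Without it their log2FC were 0.18, 0.0035 and 0.68, in the order given. In H2, replicate B was also high, with 151, 31.2 and 3.74 CPM, against 13.2, 3.97 and 1.13 CPM in replicate A. The L2 libraries had 21.5 and 28.2, 4.99 and 6.30, and 1.56 and 1.67 CPM. Counts of overlapping or near-identical neighbours are uncertain, because how the counting treated strand and shared reads is not stated.

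The contrast of L2 with H2, also of low against high TSC but at low *AGPaseS-a* expression, shares no library with that of L1 and H1. It had 481 genes at an unadjusted p under 0.05 (2.36%) and 0 at the study's thresholds in edgeR. The change in L1/H1 minus that in L2/H2 was tested in the same fit, and 0 genes passed the thresholds (321 genes, 1.57%, at an unadjusted p under 0.05, and 6 genes called by DESeq2). Some wide-gap genes had the same order in both contrasts. The 9-divinyl ether synthase gene LOC102588225 had 85.0 and 40.9 CPM in L2, against 274 and 198 CPM in H2 (log2FC -1.91 ± 0.37). The kirola-like gene LOC102584942 had 171 and 497 CPM in L2, against 112 and 83.8 CPM in H2 (log2FC 1.77 ± 0.47), and for LOC102591644 (cytochrome P450 71A4-like) the log2FC was 2.27 ± 0.72. Others did not. LOC102601158 (cruciferin PGCRURSE5-like) had 9.58 and 9.79 CPM in L2, against 55.6 and 12.4 CPM in H2, and LOC107057670 (WAT1-related) had a log2FC of -1.36 ± 0.75. Among families, the median log2FC in L2/H2 was 0.26 for WAT1-related proteins, 0.11 for aquaporins, -0.36 for glutathione S-transferases, -0.02 for patatins, -0.05 for WRKY factors and -0.45 for proteinase inhibitors. Families that differed mainly against H1 replicate A also had shifted medians in L2/H2, where the H2 replicates lay apart as well. Medians were -0.67 for core histones, -0.41 for cytosolic ribosomal proteins, -0.32 for respiration genes, -0.39 for metal-binding proteins and -0.21 for the proteasome. They were 0.38 for late blight resistance homologs, 0.30 for other resistance proteins and 0.34 for PPR proteins. Differences between the 2 contrasts were not tested for families. Levels of 27.9% of genes lay more than 2-fold apart between the H2 replicates. Their A minus B correlated with that of H1 at -0.333. Medians against each H2 library alone were not taken, so whether a single H2 library carries these shifts was not tested.

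**Figure D5:**
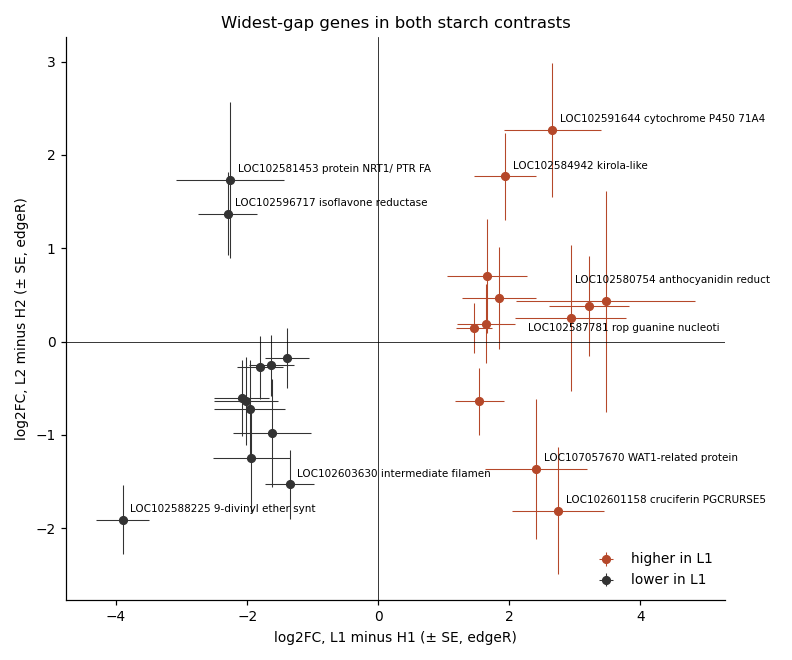
log2FC with its SE (edgeR) of the 24 widest-gap genes in L1 minus H1 (x axis) and in L2 minus H2 (y axis), which share no library; the genes were chosen on the x axis. The 9-divinyl ether synthase gene lies at -3.90 and -1.91, the kirola-like gene at 1.93 and 1.77, and the cruciferin PGCRURSE5-like gene at 2.74 and -1.81.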

How the data were processed

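The deposited values are raw counts per gene, made by the authors from reads of 8 libraries (2 per bulk). Per the methods, the authors trimmed reads with Trimmomatic, aligned them to SolTub_3.0 and counted reads per gene with HTSeq. The submitters' processing notes name TopHat2 2.0.9, Bowtie2 2.1.0 and DESeq2. How the counting treated strand and near-identical copies is not stated. Start and End positions, strand and product names were read from annotation columns of the deposited comparison tables. The counts, fold changes and p-values in those tables, the authors' own comparisons, and 2 columns of no sample were not used.

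The 32768 genes were filtered with filterByExpr, which left 20389, scaled by TMM and fitted with 1 mean per bulk over all 8 libraries (edgeR 4.0.16 quasi-likelihood test, R 4.3.3, Benjamini-Hochberg adjustment). Calls needed a log2FC of 1.5 or more in size and an FDR below 0.05. SE is the absolute log2FC divided by the square root of F. Non-overlap was read on log2 CPM with a prior count of 2. Library totals were 15293539 to 31943185 counts. Families are lists of words in product names, described by counts and medians with no set test. Members, lists and rules were chosen with earlier results of these data known. Named were, in each direction, the 12 widest gaps with a product name, an unadjusted p under 0.05 and a mean of at least 5 CPM; in each described family up to 3 of the most abundant and 3 of the widest gap in each direction; runs of at least 3 neighbours within 100 kb; and genes called by an alternative; a selection of these is printed, with the few other genes marked in the text as chosen after their values were seen. Alternatives were DESeq2 1.42.0, the 4 libraries alone, RLE factors, other count filters, the replicate letter as a block, a linear fold of 1.5 and leaving out each library. The scripts were tested on simulated data.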

Additional observations from a re-analysis of the deposited data

Results flagged for a closer look

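The 147 genes printed were in large part chosen for their gap in L1/H1. Of these, 8 lay in opposite directions in the 2 starch contrasts. The share over all tested genes was not counted, so this number is not read as a result. In each of the 8, both L1 libraries lay on one side of both H1 libraries, and both L2 libraries on the other side of both H2 libraries. The difference was tested as an interaction in edgeR over all genes, and the FDR was 1.00 for each of them, so the unadjusted p-values are given as a description.

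Among genes with counts in every bulk the widest was LOC102601158 (cruciferin PGCRURSE5-like), higher in L1 and lower in L2, with an interaction of 4.55 ± 0.975 on the log2 scale (SE, unadjusted p = 0.0015). It had 96.2 and 129.8 CPM in L1, against 9.05 and 24.6 CPM in H1, and 9.58 and 9.79 CPM in L2, against 55.6 and 12.4 CPM in H2. LOC102596717 (isoflavone reductase-like protein) went the other way, with an interaction of -3.67 ± 0.63 (unadjusted p = 0.00036) and 20.3 and 10.9 CPM in L2, against 7.02 and 5.03 CPM in H2. LOC102581453 (NRT1/PTR FAMILY 1.2-like) had -3.99 ± 1.18 (unadjusted p = 0.0091), with 3.15 and 4.42 CPM in L2, against 1.70 and 0.559 CPM in H2. The methyltransferase gene LOC102601955, of lignin precursor synthesis, had -1.72 ± 0.40 (unadjusted p = 0.0024), and the aquaporin gene LOC102591890 (TIP1-1) had 1.06 ± 0.34 (unadjusted p = 0.013). For *STMADS11* the interaction was -1.504 ± 0.67 (unadjusted p = 0.054), and for LOC102593841 (glutathione S-transferase zeta class-like) it was -0.51 ± 0.39 (unadjusted p = 0.22). In both, the nearest libraries of L2 and H2 were close. *STMADS11* had 80.1 and 76.5 CPM in L2, against 48.7 and 74.7 CPM in H2 (log2FC 0.34). LOC102593841 had 445 and 429 CPM in L2, against 423 and 410 CPM in H2 (log2FC 0.07), so it was almost unchanged there. The scarce cell wall invertase gene LOC102604100 had an interaction of 8.25, which depends on the prior count because H1 was at 0 counts, with 0.153 and 0.0909 CPM in L2, against 0.638 and 0.301 CPM in H2.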

How the results depend on the processing

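The count of genes at the study's thresholds was 0 under edgeR with the other settings, 1 with no filter on low counts and 37 in DESeq2, and it was 0 to 0 when each library was left out in turn. For the interaction it was 6 in DESeq2 and 0 to 0 without each library. Genes higher in L1 at an unadjusted p under 0.05 numbered 292 with only the 4 libraries, and 195 to 2843 without each library. Genes lower in L1 numbered 1058 in DESeq2, and 262 to 2291 without each library. The letters A and B gave no common pairing: correlations of A minus B between bulks ran from -0.333 to 0.134 over 6 pairs of bulks. The lowest was that of H1 with H2, where deviations of H1 replicate A went partly with those of H2 replicate B. The highest was that of L1 with H1. With the replicate letter as a block, 0 genes passed the thresholds, 338 were higher and 424 lower at an unadjusted p under 0.05. The signs of *ycf3*, *atpF* and *trnL-UAA* turned without H1 replicate A, to 0.18, 0.0035 and 0.68. Of the L1 and H1 libraries only that library was high, while H2 replicate B was high as well. Without H1 replicate B their log2FC were -4.15, -4.10 and -4.35. Of the named genes, 90 had an unadjusted p under 0.05. Under the alternatives their direction turned in 3 of 1248 values, those of the plastid genes above without H1 replicate A. The side of 0.05 often changed where an L1 or H1 library was left out. Many of these genes were chosen by that p in these data, and the alternatives share most libraries with the main fit. The counts are therefore not support for single genes.

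The limits are those of 2 libraries per bulk. Replicate A of H1 was the shallowest library and the one that stood apart, and its part in the family medians was not tested beyond giving them without it. With 1 H1 library in place of a pair, non-overlap is more frequent by construction (35.8% of genes higher and 35.3% lower against H1 replicate B alone). A gene at or near 0 counts in a bulk has a fold change that depends on the prior count.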
